A study of Mus musculus with 14 samples.

Results

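Long-term hematopoietic stem cells (LT-HSCs) of old mice that carried little P-selectin on their surface were compared before and after transplantation, across all expressed genes. The comparison used 7 of the 14 libraries of the study, chosen by their titles: 4 of Selp low LT-HSCs before transplantation and 3 of LT-HSCs derived from Selp low cells after it. The Selp low libraries came from marrow of female C57BL/6 mice, 4 donors older than 24 months, as cells without lineage markers or CD48, with Sca-1, c-Kit and CD150, and with little P-selectin. For the Selp low-derived libraries, 1000 old Selp low cells were given to lethally irradiated recipients aged 10 to 16 weeks. After 16 weeks (4 months in the titles), CD45.2+ cells of the same stem cell gate were sorted from the recipients. No P-selectin gate was set the second time, so the derived cells may have any amount of it. Each library was made from 5000 cells, by template-switching cDNA synthesis and tagmentation. The labels do not say whether the derived libraries represent different recipients, so the p-values reflect library-to-library spread, which may be technical. Transplantation, the host and its age, the irradiation, the CD45.2 gate, the missing P-selectin gate and the time of collection all changed together and cannot be told apart.

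LT-HSCs renew themselves and rebuild every blood lineage, and in undisturbed marrow most of them rest outside the cell cycle. With age the compartment grows, and its cells gain transcripts of a recurring set of genes, many of them for adhesion molecules, matrix proteins and proteins best known from platelets. P-selectin, which tethers leucocytes to activated platelets and endothelium, belongs to that set.

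Reads in genes numbered from 22374794 to 38216775 across the 7 libraries. Levels are given as CPM, counts scaled to library size with TMM factors, in the order of the replicates. Of the genes behind the sort, Selp was at 489, 623, 669 and 478 CPM before and at 241, 293 and 273 CPM after transplantation. Every derived library was thus below every Selp low library, although the cells before transplantation had been gated for low surface P-selectin. Selp fell by 1.07 ± 0.16 on the log2 scale (SE, edgeR adjusted p = 0.00688). Slamf1, the gene of CD150, was at 180, 207, 247 and 187 CPM before and 94.0, 119 and 108 CPM after (fell by 0.94 ± 0.15, adjusted p = 0.00854). In bulk RNA, fewer cells of a type and less RNA per cell cannot be told apart. Kit, Ly6a (Sca-1), Cd48 and Ptprc (CD45) were not called, and their groups overlapped. Cd48 was at 2.86, 4.32, 3.01 and 21 CPM before and 9.82, 15.5 and 14.1 CPM after (edgeR adjusted p = 0.534). Its overlap came from low replicate 4 only, and without that library edgeR called Cd48 higher. Low replicate 4 and derived replicate 2 stood apart in transcripts of mature cells. The summed level of 23 neutrophil markers was 2655, 4570 and 5683 CPM in low replicates 1 to 3 and 17000 CPM in low replicate 4. It was 3260 and 1944 CPM in derived replicates 1 and 3 and 13979 CPM in derived replicate 2. The groups therefore overlapped.

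At a Benjamini-Hochberg adjusted p under 0.05, edgeR called 1362 of 15807 genes (8.62%). After transplantation 577 were higher (3.65%) and 785 were lower (4.97%). The median log2 change over all genes tested was 0.00, which TMM scaling sets close to 0. The falls reached further than the rises: 233 genes fell and 84 rose by over 4-fold, and 129 fell and 17 rose by over 8-fold. In 1349 of the called genes the highest library of one group was below the lowest of the other, as it was, over all genes tested, in 10.6% with the derived libraries higher and 12.4% with them lower. How many genes were called depended on single libraries, from 308 without derived replicate 1 to 2206 without low replicate 4. Without low replicates 1, 2 or 3 the counts were 715, 575 and 529, without derived replicate 3 it was 730, and none of these fits gave a called gene the other direction.

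**Figure D1:**
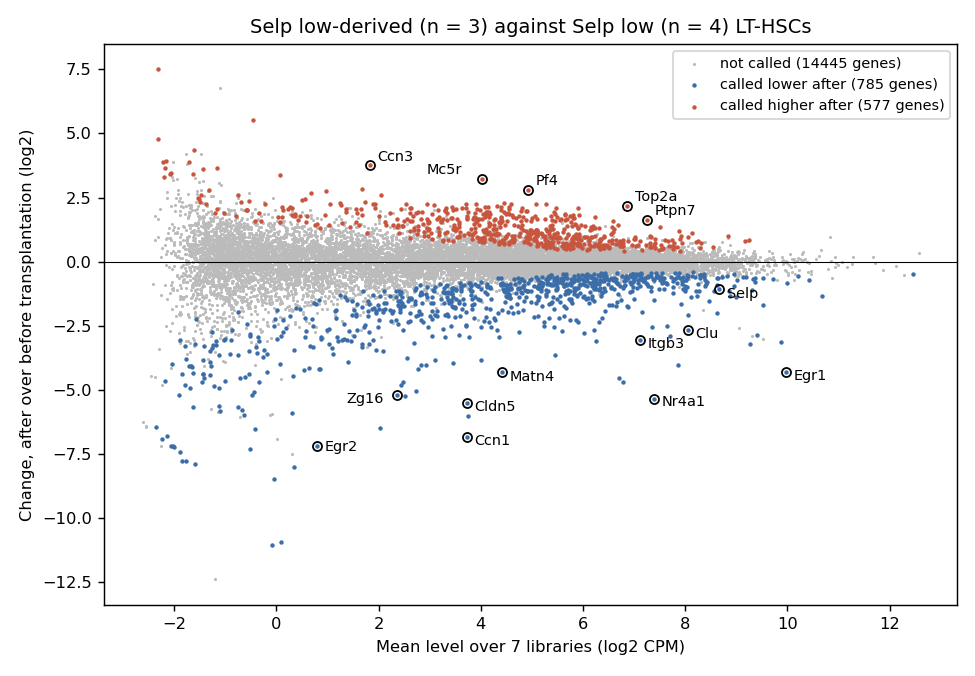
Change after over before transplantation (log2, vertical axis) against mean level over the 7 libraries (log2 CPM, horizontal axis), 1 point per gene, with genes called by edgeR in colour and 15 genes named in the text circled. The 785 called genes below 0 reach further from 0 than the 577 above it, at low and at high levels.

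Matn4 and Itgb3 had the smallest p-values of all genes. Matn4 (ENSMUSG00000016995.17, chr2:164389393-164405160, minus strand, GRCm38) encodes matrilin 4, an extracellular matrix protein known to restrain HSC expansion under stress. It was at 85.3, 63.4, 68.3 and 90.4 CPM before and 5.14, 3.47 and 3.07 CPM after transplantation. Every derived library was below every Selp low library, and Matn4 fell by 4.30 ± 0.25 on the log2 scale, 19.7-fold (edgeR adjusted p = 1.7e-04). Itgb3 (ENSMUSG00000020689.4, chr11:104608000-104670476, plus strand) encodes integrin beta 3, which pairs with alpha IIb on platelets and alpha V on many cells. Its levels were 257, 346, 378 and 407 CPM before and 38.2, 42.8 and 44.2 CPM after. The 3 derived libraries lay close together, at 41.7 ± 3.16 CPM (SD, n = 3) and below each Selp low library, and the fall was 8.31-fold (3.06 ± 0.18 on the log2 scale, adjusted p = 1.7e-04).

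Clu (ENSMUSG00000022037.15, chr14:65968483-65981547, plus strand) encodes clusterin, a secreted chaperone known to be higher in old HSCs. It was at 613, 587, 658 and 548 CPM before and 56.2, 109 and 117 CPM after, and fell by 2.68 ± 0.25 on the log2 scale (adjusted p = 0.00105). Derived replicate 1 had the lowest level, below the other two derived libraries. Ptpn7 (ENSMUSG00000031506.11, chr1:135132700-135145317, plus strand), a tyrosine phosphatase of blood cells that acts on MAP kinases, went the other way. It was at 84.3, 109, 96.3 and 91.1 CPM before and 337, 286 and 251 CPM after, a rise of 1.61 ± 0.14 (3.06-fold, adjusted p = 8.4e-04). The calls of all 4 genes, and of Selp and Slamf1, were kept in each of the 7 fits that left out 1 library. The panels of levels by library show these genes beside others described below.

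**Figure D2:**
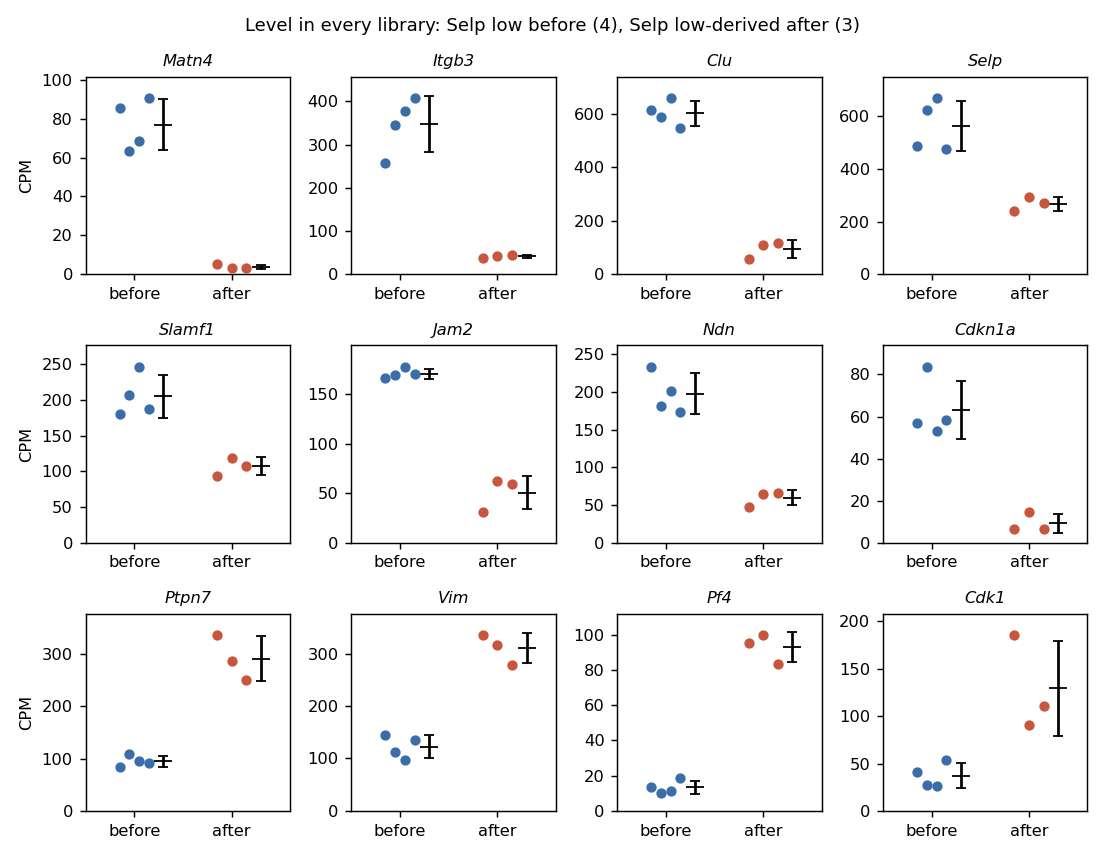
Levels (CPM, linear axes from 0) of 12 genes in the 4 Selp low libraries before and the 3 Selp low-derived libraries after transplantation, 1 point per library, with the mean and SD of each group beside the points. In every panel the points of the groups are apart: 8 genes, Matn4 to Cdkn1a, are lower after and 4, Ptpn7 to Cdk1, are higher.

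HSC ageing genes, a list of transcripts known to increase as HSCs age, fell together. Of 54 tested, 34 were called lower (63.0%, against 4.97% of all genes) and 0 higher, with a median log2 change of -1.25 against 0.00 over all genes. The list includes Matn4, Itgb3 and Clu. Like all lists here, it was chosen with earlier results of these data known, so its share is not independent of them. Its mean level was 6.62, 6.64, 6.79 and 6.63 log2 CPM before and 4.80, 5.49 and 5.34 after, so each of the 4 Selp low libraries was above each derived one. Of the 54 members, 53 had a negative log2 change. Zg16, a lectin of secretory granules, was at 19.2, 25.9, 28.7 and 24.2 CPM before and at 0.290, 1.06 and 0.596 CPM after, and fell by 5.23 ± 0.42 on the log2 scale (edgeR adjusted p = 4.9e-04). Muc1, a surface mucin, was at 17.5, 29.5, 37.0 and 24.2 CPM before and 0.326, 1.5 and 3.11 CPM after (fell by 4.05 ± 0.62, adjusted p = 0.00753). Every derived library was below every Selp low library for both genes.

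Trim47, a ubiquitin ligase gene, was at 1142, 1397, 1573 and 867 CPM before and 320, 373 and 452 CPM after (fell by 1.70 ± 0.22, adjusted p = 0.00422). Ehd3, an endosomal recycling gene named after its values were seen, was at 421, 483, 592 and 529 CPM before and 72.3, 148 and 139 CPM after (fell by 2.08 ± 0.25, adjusted p = 0.00318). Mmrn1, which encodes multimerin 1 of platelet granules, was at 1324, 1132, 1500 and 1363 CPM before and 590, 796 and 833 CPM after (fell by 0.85 ± 0.16, adjusted p = 0.0163). Its groups did not overlap, but the call was lost without low replicate 3 and without derived replicate 1 (adjusted p up to 0.0663). Vwf, the von Willebrand factor gene, was not called: it was at 669, 576, 572 and 720 CPM before and 258, 477 and 540 CPM after, again without overlap (adjusted p = 0.165). Of the ageing list, 27 members were called lower without derived replicate 1 and 35 without derived replicate 2.

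**Figure D3:**
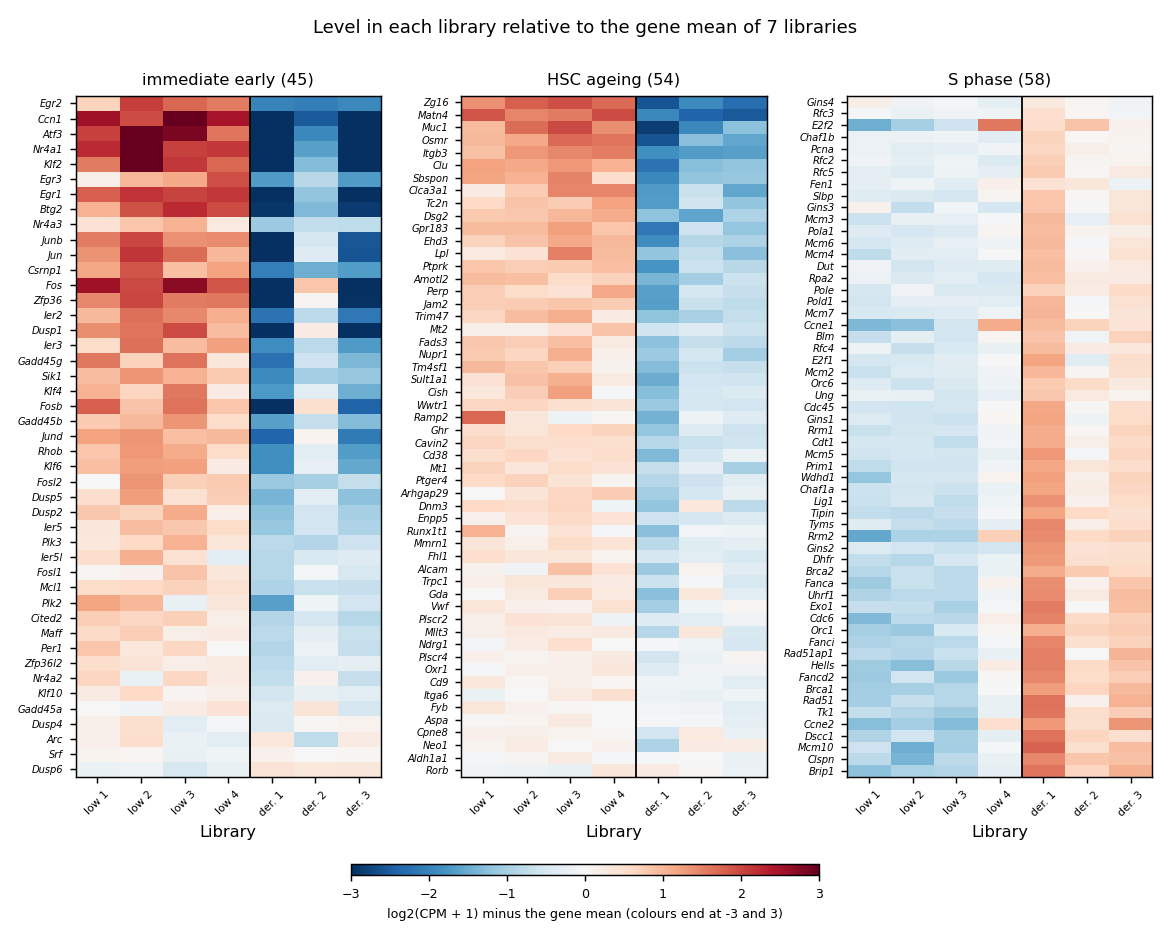
Levels of every tested member of 3 lists (rows) in the 7 libraries (columns: Selp low 1 to 4 before, Selp low-derived 1 to 3 after), as log2(CPM + 1) minus the gene's mean over the 7 libraries, ordered by log2 change. Immediate early and ageing genes are mostly red before and blue after, S-phase genes the reverse, and derived replicate 2 is paler than derived replicates 1 and 3 in the immediate early panel.

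Immediate early genes, whose transcription is induced within minutes by growth factors, cytokines and stress and which mostly encode transcription factors and feedback regulators, were lower too. Of 45 tested, 32 were called lower (71.1%, against 4.97% of all genes), with a median log2 change of -2.17. Only 1 was called higher (2.22%, below the 3.65% over all genes). Their summed level was 23628, 30221, 27385 and 21558 CPM before and 2220, 7374 and 2810 CPM after. Derived replicate 2 was the highest of the 3 derived libraries and still below each library before transplantation. Egr1, a zinc finger factor known for holding HSCs in quiescence, was at 3478, 4512, 4106 and 4349 CPM before and 77.8, 438 and 105 CPM after (fell by 4.31 ± 0.60, 19.9-fold, edgeR adjusted p = 0.00539). Its relative Egr2 was at 5.85, 17.3, 13.3 and 11.7 CPM before and 0.0725, 0.0365 and 0.128 CPM after, and fell by 7.21 ± 0.58 (adjusted p = 4.9e-04). For both genes every derived library was below every Selp low library.

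Nr4a1, an orphan nuclear receptor, was at 811, 1760, 706 and 744 CPM before and 7.97, 54.6 and 10.7 CPM after (fell by 5.36 ± 0.77, adjusted p = 0.00581). Ccn1, a matricellular protein gene and YAP target, was at 112, 75.4, 189 and 107 CPM before and 0.254, 2.41 and 0.426 CPM after (fell by 6.85 ± 0.70, adjusted p = 0.00146). Btg2, which restrains proliferation, was at 476, 869, 1094 and 899 CPM before and 29.6, 91.8 and 31.0 CPM after (fell by 4.04 ± 0.48, adjusted p = 0.00316). In all 3 genes derived replicate 2 was the highest derived library. Atf3, Klf2 and Csrnp1, which encode transcription factors, fell as well (log2 changes of -6.03, -4.69 and -3.10), and the calls of all of these genes were kept in every fit that left out 1 library. Mcl1, a survival factor gene that HSCs need, fell less, from 691, 712, 762 and 652 CPM to 246, 297 and 291 CPM (1.34 ± 0.13, adjusted p = 0.00114).

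Jun, a subunit of the AP-1 factor, was at 2400, 4182, 3011 and 1873 CPM before and 104, 721 and 155 CPM after (fell by 3.13 ± 0.65, adjusted p = 0.0225). Its call was lost without low replicates 2 or 3 and without derived replicates 1 or 3 (adjusted p up to 0.0685). Its partner Fos, named after its values were seen, was at 4392, 2957, 4914 and 2747 CPM before and 13.7, 1337 and 37.1 CPM after. The groups did not overlap, but derived replicate 2 was far above the other two, and Fos was not called (adjusted p = 0.184). Dusp1, a MAP kinase phosphatase, had the same spread, with 58.8, 637 and 66.5 CPM after (adjusted p = 0.0773). The one member called higher was Dusp6, a phosphatase of ERK named after its values were seen. It rose from 95.1, 100, 78.8 and 93.2 CPM to 143, 136 and 139 CPM (0.60 ± 0.12, adjusted p = 0.0173). That call was lost without low replicate 3 and without derived replicates 1 or 3 (adjusted p up to 0.0792). The immediate early list had 18 members called lower without derived replicate 1. It had 21 without derived replicate 3 and 36 without derived replicate 2.

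The promoters of 36 list members were found in the RefSeq table (GRCm38.p6), as 46 windows of 250 bases before a gene start. The CArG box, the site known to bind serum response factor, was present on either strand in 15.2% of these windows, in 1.16% of the 13971 windows of tested genes and in 1.47% of all 32851 windows. The CRE palindrome TGACGTCA, known to bind CREB and ATF factors, was present in 8.70%, against 2.47% of the windows of tested genes and 1.55% of all. These were 4 windows, of Btg2, Maff, Plk2 and Dusp1, and edgeR did not call Plk2 and Dusp1. In the windows of all genes called lower the CRE share was 2.33%, near that of tested genes. The 7 windows with a CArG box belong to only 4 genes, of which Egr2 has 4 of the windows, and a match of letters is not a binding site. The stretches up to the gene start are shown for 3 genes that fell, 5′ to 3′ on the gene's strand, with the motif in capitals, because they hold these letters in genes that were called lower: Egr2 (chr10:67537466-67537565, plus strand), Dusp5 (chr19:53529045-53529144, plus strand, 2 adjoining boxes) and Btg2 (chr1:134079156-134079335, minus strand, CRE).
Egr2: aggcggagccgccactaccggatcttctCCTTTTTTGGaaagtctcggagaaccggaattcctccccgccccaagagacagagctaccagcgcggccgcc
Dusp5: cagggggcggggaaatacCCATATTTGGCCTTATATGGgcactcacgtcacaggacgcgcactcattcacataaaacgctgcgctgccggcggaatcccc
Btg2: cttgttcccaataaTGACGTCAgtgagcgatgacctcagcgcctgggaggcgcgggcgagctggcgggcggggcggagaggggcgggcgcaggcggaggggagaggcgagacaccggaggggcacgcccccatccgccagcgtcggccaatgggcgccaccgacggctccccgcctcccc
Dusp5, a nuclear phosphatase of ERK named after its values were seen, was at 70.9, 119, 68.5 and 82.4 CPM before and 18.0, 38.6 and 20.5 CPM after (fell by 1.73 ± 0.30, adjusted p = 0.0119, and 0.0560 without derived replicate 1). Of the other genes with a CArG box here, Srf and Zfp36 were not called.

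Feedback regulators of cytokine and MAP kinase signalling moved in both directions, with a median log2 change of -0.22. Of 30 tested, 8 were called lower (26.7%, against 4.97% of all genes) and 3 higher (10.0%, against 3.65%). Socs3, which blocks JAK-STAT signalling, was at 347, 621, 583 and 350 CPM before and 6.09, 42.7 and 12.1 CPM after (fell by 4.55 ± 0.65, edgeR adjusted p = 0.00573). Pim2, a survival kinase gene, was at 194, 233, 386 and 255 CPM before and 44.9, 77.0 and 79.9 CPM after (fell by 1.99 ± 0.28, adjusted p = 0.00560). The members called higher were Ptpn7, Dusp6 and Spred2, an inhibitor of the RAS pathway named after its values were seen (0.80 ± 0.19, adjusted p = 0.0326, and up to 0.116 with any library but low replicate 4 left out). Without derived replicate 1, 4 were called lower, with 5 each without low replicates 2 or 3 or derived replicate 3. Without low replicate 3 or derived replicates 1 or 3 only 1 was called higher, and 2 without each of the others but low replicate 4. The NF-kB list had 7 of 28 members called lower, a larger share than the 4.97% of all genes. It had 0 called higher, against 3.65% of all genes, and its median was -0.58. Bcl3, a nuclear IkB protein, was at 70.6, 86.4, 98.9 and 74.5 CPM before and 23.3, 36.6 and 30.8 CPM after (fell by 1.45 ± 0.19, adjusted p = 0.00436). Nfkbia, the main inhibitor of NF-kB and one of its targets, was not called, at 464, 364, 277 and 249 CPM before and 210, 215 and 202 CPM after (adjusted p = 0.0688). A single NF-kB gene was called without derived replicate 1, and 2 without derived replicate 3, and 4 without low replicates 2 or 3. The count was 13 without low replicate 4 and derived replicate 2.

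Genes of the cell cycle rose as a group. Of 86 genes of G2 and M phase, 77 were called higher (89.5%, against 3.65% of all genes) and 0 lower, with a median log2 change of 1.75. Of 58 S-phase genes, 38 were called higher (65.5%) and 0 lower, with a median of 1.14, and all 58 had a positive log2 change. The mean of the G2 and M list was 3.80, 3.58, 3.45 and 4.64 log2 CPM before and 6.12, 5.2 and 5.5 after. Derived replicate 1 was the highest library and low replicate 4 the highest of those before transplantation, and the groups did not overlap. The number of members called depended on single libraries: 17 of G2 and M phase and 4 of S phase without derived replicate 1, and 83 and 49 without low replicate 4. Without low replicates 1, 2 or 3 or derived replicate 3 they were 45, 40, 39 and 50 of G2 and M phase, and 20, 17, 14 and 21 of S phase.

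Top2a, the topoisomerase that untangles replicated chromosomes, was at 46.6, 48.3, 48.5 and 120 CPM before and 426, 220 and 245 CPM after (log2 change 2.17 ± 0.37, edgeR adjusted p = 0.0111). Its call was lost without derived replicate 1 (adjusted p = 0.0523). Ckap2l, a spindle protein gene, was at 19.5, 10.6, 13.6 and 29.0 CPM before and 116, 66.4 and 77.3 CPM after (2.25 ± 0.33, adjusted p = 0.00636). Cdk1, the kinase that drives entry into mitosis, was at 41.3, 27.1, 26.8 and 53.8 CPM before and 186, 90.9 and 111 CPM after (1.80 ± 0.30, adjusted p = 0.0107). In these 3 genes low replicate 4 was the highest library before transplantation, and derived replicate 1 the highest after it. The condensin genes Ncaph and Ncapd2, which compact chromosomes, rose by 1.99 ± 0.29 and 1.43 ± 0.23 (adjusted p = 0.00598 and 0.00904). Cenpn, a centromere protein gene, rose by 1.77 ± 0.24 (adjusted p = 0.00436), and Aspm, a spindle pole gene, by 2.25 ± 0.35 (adjusted p = 0.00778). All of these apart from Top2a kept their call in every fit that left out 1 library.

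In S phase, Brip1, a helicase gene of DNA repair, was at 5.11, 6.34, 6.79 and 10.9 CPM before and 42.6, 21.5 and 28.8 CPM after (2.09 ± 0.31, adjusted p = 0.00682). Tk1, the thymidine kinase made in S phase, was at 25, 22.2, 19.1 and 35.3 CPM before and 129, 60.5 and 69.4 CPM after (1.77 ± 0.29, adjusted p = 0.00928). Gins2, part of the replicative helicase, rose by 1.42 ± 0.24 (adjusted p = 0.0105). The helicase core gene Mcm6 was at 422, 461, 504 and 539 CPM before and 1175, 577 and 775 CPM after and just missed the threshold (0.81 ± 0.22, adjusted p = 0.0514). Its groups did not overlap.

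**Figure D4:**
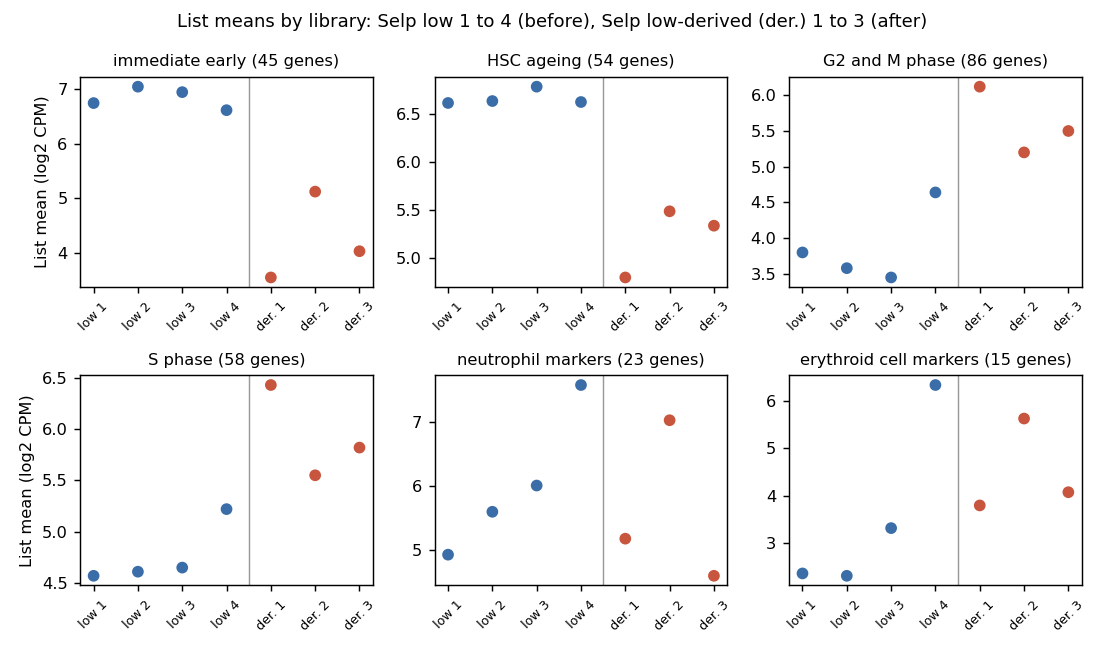
Mean level of 6 lists (log2 CPM, vertical axes that do not start at 0) in each of the 7 libraries, Selp low 1 to 4 before and Selp low-derived (der.) 1 to 3 after transplantation, divided by the grey line. The immediate early, ageing, G2 and M and S-phase lists part the groups, while neutrophil and erythroid markers are highest in Selp low 4 and derived 2 and do not.

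Windows before the start of 74 genes of G2 and M phase (80 windows) held the letters TTTGAA, the core of the cell cycle homology region (CHR) known to bind the DREAM and MuvB complexes, on either strand in 36.2%. The share was 16.0% of all 32851 windows and 11.1% of the 13971 windows of tested genes. CCAAT was found in 68.8% of the G2 and M windows, against 35% of the windows of tested genes and 33.8% of all. It was also found in 58.8% of the S-phase windows, and in 55.3% of the ageing and 41.3% of the immediate early windows, lists that fell. For the S-phase list (51 windows of 45 genes), E2F letters (TTTCCCGC, TTTGGCGC or TTTCGCGC, either strand) were found in 21.6%, against 2.73% of the windows of tested genes and 1.53% of all. A match describes the window only. The stretches up to the gene start are shown for genes named above and Uhrf1, with the CHR or E2F letters in capitals, since each lies near the start of a gene that rose: Ckap2l (chr2:129297213-129297312, minus strand), Top2a (chr11:99024190-99024289, minus strand), Cdk1 (chr10:69352913-69353012, minus strand) and Uhrf1 (chr17:56304113-56304312, plus strand).
Ckap2l: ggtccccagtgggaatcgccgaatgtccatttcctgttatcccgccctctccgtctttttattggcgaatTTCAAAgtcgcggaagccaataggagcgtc
Top2a: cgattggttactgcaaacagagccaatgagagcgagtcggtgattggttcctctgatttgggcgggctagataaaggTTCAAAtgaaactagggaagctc
Cdk1: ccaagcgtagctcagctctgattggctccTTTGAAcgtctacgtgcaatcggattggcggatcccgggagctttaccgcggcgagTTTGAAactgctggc
Uhrf1: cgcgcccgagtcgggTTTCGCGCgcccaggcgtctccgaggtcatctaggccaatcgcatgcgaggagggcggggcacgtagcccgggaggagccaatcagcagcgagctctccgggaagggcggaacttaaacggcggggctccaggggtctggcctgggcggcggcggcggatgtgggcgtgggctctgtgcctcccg
In Ckap2l and Top2a the motif lies on the other strand, where TTTGAA reads as TTCAAA. Uhrf1, which guides DNA methylation to new strands, was at 51.0, 54.3, 54.8 and 89.3 CPM before and 258, 115 and 182 CPM after (1.57 ± 0.28, adjusted p = 0.0124, and 0.0561 without derived replicate 1).

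Of 23 CDK inhibitors, cyclins and CDKs, 7 were called higher (30.4%, against 3.65% of all genes) and 4 lower (17.4%, against 4.97%). Cdkn1a, which encodes the CDK inhibitor p21, was at 56.9, 83.8, 53.3 and 58.4 CPM before and 6.63, 14.4 and 6.64 CPM after (fell by 2.77 ± 0.32, 6.83-fold, edgeR adjusted p = 0.00254). The other members called lower were Cdkn1c (p57, -0.98), Cdkn2d (p19, -0.64) and the splicing-linked cyclin gene Ccnl1 (-0.78), the first 2 named after their values were seen. Cdkn2c (p18) rose by 0.96 ± 0.19 (adjusted p = 0.0196). The calls of Cdkn1c, Ccnl1 and Cdkn2c were lost without derived replicate 1 (adjusted p = 0.111, 0.0715 and 0.0901), and that of Cdkn2d without derived replicate 3 (adjusted p = 0.0909). Cdkn1c was also lost without low replicates 1, 2 or 3 or derived replicate 3, Cdkn2d without low replicates 2 or 3 or derived replicate 2, and Ccnl1 without derived replicate 3. Without derived replicate 1 only 1 member was called higher, and without derived replicate 3 only 1 lower. The higher count was 2 or 3 without low replicates 1, 2 or 3 or derived replicate 3, and the lower count 2 without low replicates 2 or 3 or derived replicate 1. The quiescence list had 14 of 30 members called lower (46.7%, against 4.97% of all genes) and 1, Cdkn2c, higher (3.33%, near the 3.65% over all genes). Its median was -0.70, with 8 called lower without derived replicates 1 or 3 and 9 without low replicate 2. Ndn, which encodes necdin, a growth suppressor that limits HSC proliferation, was at 234, 182, 202 and 173 CPM before and 47.9, 64.4 and 66.3 CPM after (fell by 1.73 ± 0.17, adjusted p = 0.00112). Cited2, a transcriptional cofactor needed for HSC maintenance, was at 508, 467, 494 and 343 CPM before and 163, 213 and 166 CPM after (fell by 1.33 ± 0.17, adjusted p = 0.00422). The list shares Egr1, Btg2, Nr4a1, Klf2, Cited2 and other members with the immediate early list.

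Ndn also belongs to a list of imprinted genes linked to HSC quiescence (median -0.98). Of its 15 tested genes, 7 were called lower (46.7%, against 4.97% of all genes) and 0 higher. Dlk1, an inhibitor of differentiation expressed from the paternal allele, was at 7.53, 28.2, 70.2 and 34.7 CPM before and 0.761, 0.0365 and 0.341 CPM after (fell by 6.51 ± 0.94, adjusted p = 0.00598). Levels before transplantation differed widely, and all were above each derived one, but limma voom did not call Dlk1. Ascl2, a transcription factor gene, was at 3.16, 3.21, 3.40 and 2.95 CPM before and 0.290, 0.585 and 0.554 CPM after (fell by 2.73 ± 0.39, adjusted p = 0.00573). Grb10, an adaptor that restrains growth factor signalling, was not called (-0.49 ± 0.18). The list had 3 called members without low replicate 3 or derived replicates 1 or 3, and 4 without low replicates 2 or 4, with a median of -0.31 without low replicate 4. Targets of p53 showed no common direction (median -0.15), with 4 of 36 called higher (11.1%, against 3.65% of all genes) and 5 lower (13.9%, against 4.97%). Those higher were Ckap2, Gtse1, Psrc1 and Zmat3, the first 3 of which encode proteins of the mitotic spindle, and those lower were Cdkn1a, Btg2, Ddit4, Plk3 and Perp. Of these, Ckap2, Gtse1, Psrc1, Zmat3 and Perp were named after their values were seen, and without derived replicate 1 no member was called higher (adjusted p up to 0.0576, 0.109, 0.134 and 0.0993). Without low replicates 2 or 3 it was 1, and without low replicate 1 or derived replicate 3 it was 2. Plk3 also lost its call without derived replicate 1 (adjusted p = 0.0542).

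Genes of platelets and megakaryocytes split (median -0.35), with 5 of 35 called higher (14.3%, against 3.65% of all genes) and 8 lower (22.9%, against 4.97%). Pf4, platelet factor 4, a chemokine of platelet granules that also restrains HSC cycling, was at 13.6, 10.2, 11.3 and 18.5 CPM before and 95.4, 100 and 83.6 CPM after. Every derived library was above every Selp low library, and Pf4 rose by 2.80 ± 0.21 (6.96-fold, edgeR adjusted p = 4.6e-04), the smallest p among genes that rose. Ppbp, the neighbouring platelet chemokine gene, was at 1.91, 1.80, 2.05 and 1.70 CPM before and 8.48, 11.8 and 6.56 CPM after (2.26 ± 0.28, adjusted p = 0.00367). The thrombin receptor gene F2r rose from 298, 258, 212 and 201 CPM to 392, 432 and 442 CPM (0.80 ± 0.15, adjusted p = 0.0164), and its relative F2rl2 and the granule gene Nbeal2 rose by 1.80 and 0.99. F2r, F2rl2 and Nbeal2 were named after their values were seen, and each lost its call without low replicate 3 or derived replicate 3 (adjusted p up to 0.0580, 0.0828 and 0.115 with 1 library left out). F2r and F2rl2 also lost it without derived replicate 1, and Nbeal2 without low replicates 1 or 2 or derived replicate 2. Members called lower, beside Itgb3 and Mmrn1, were led by Cavin2, a caveolar coat gene, at 340, 302, 314 and 301 CPM before and 120, 136 and 143 CPM after (fell by 1.24 ± 0.12, adjusted p = 0.00114). Without low replicate 3 the counts were 2 higher and 3 lower, without derived replicate 1 they were 3 and 3, without derived replicate 3 they were 2 and 6, and without low replicates 1 and 2 they were 4 and 5, and 4 and 4.

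Adhesion and junction genes were called lower in 7 of 38 (18.4%, against 4.97% of all genes) and higher in 1 (2.63%, below the 3.65% over all genes). Jam2, a junctional adhesion molecule of HSCs and endothelium, was at 166, 169, 178 and 170 CPM before and 31.1, 61.9 and 58.8 CPM after (fell by 1.75 ± 0.22, edgeR adjusted p = 0.00379). Dsg2, a cadherin of desmosomes, was at 34.6, 35.5, 40.3 and 44.0 CPM before and 7.93, 5.92 and 9.96 CPM after (fell by 2.28 ± 0.22, adjusted p = 0.00112). The single member called higher was Itga4, the integrin alpha 4 that binds VCAM-1 in marrow, named after its values were seen. It was at 30.1, 32.4, 31.9 and 60.7 CPM before and 76.7, 83.6 and 84.9 CPM after (1.08 ± 0.24, adjusted p = 0.0274), with the call lost without low replicates 1, 2 or 3 or derived replicates 1, 2 or 3 (adjusted p up to 0.0876). Outside the list, Cldn5 and Lsr were among the genes with the largest falls or smallest p-values. Cldn5, claudin 5, was at 106, 66.6, 79.0 and 43.8 CPM before and 0.652, 2.81 and 1.32 CPM after (fell by 5.52 ± 0.51, adjusted p = 0.00101). Lsr, a protein of tricellular junctions, was at 50.9, 45.2, 43.8 and 36.6 CPM before and 5.72, 7.38 and 7.62 CPM after (fell by 2.68 ± 0.19, adjusted p = 4.6e-04). Cldn5 is also in a list of endothelial and stromal markers. Of its 16 tested members, 3 were called lower (18.8%, against 4.97% of all genes), Cldn5, Kdr and Pdgfrb. Another, Runx2, was called higher (6.25%, against 3.65% of all genes), while Tie1 and Emcn were not called and overlapped. Pdgfrb and Runx2 lost their calls with 1 library left out (adjusted p up to 0.126 and 0.0990, both without derived replicate 1). In all, 3 adhesion genes were called lower without derived replicate 1 and 4 without low replicate 3. In turn, 3 were called higher without low replicate 4.

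Of 28 matrix genes, 7 were called lower, a larger share than the 4.97% of all genes. Only 1 was called higher (3.57%, near the 3.65% over all genes). The list as a whole was split, with 13 positive and 15 negative log2 changes and a median of -0.15. Col18a1, the collagen that yields endostatin, was at 78.3, 72.2, 87.9 and 75.3 CPM before and 19.7, 13.9 and 17.4 CPM after (fell by 2.20 ± 0.16, adjusted p = 4.6e-04). Ccn3 was the member called higher, a matricellular protein of the same family as Ccn1. It was at 2.42, 0.743, 0.810 and 1.11 CPM before and 6.85, 20.3 and 24.4 CPM after (3.76 ± 0.54, 13.5-fold, adjusted p = 0.00573), so the 2 CCN genes moved in opposite directions. Without low replicate 4 or derived replicate 2, 2 matrix genes were called higher, and 4 without both. Of 34 TGF-beta and BMP genes, 10 were called lower (29.4%, against 4.97% of all genes) and 0 higher (median -0.34). The lower count was 4 without derived replicate 1 and 6 without low replicate 2. Bmpr1a, a type I BMP receptor, was at 30.0, 36.3, 31.3 and 36.0 CPM before and 6.77, 6.80 and 6.34 CPM after (fell by 2.33 ± 0.17, adjusted p = 4.6e-04). The ligand gene Bmp4 was at 58.5, 47.1, 37.3 and 22.3 CPM before and 3.80, 9.06 and 8.30 CPM after (fell by 2.55 ± 0.39, adjusted p = 0.00778). Bambi, a decoy receptor of the same pathway, fell by 1.39 ± 0.22 (adjusted p = 0.00843). A ligand, a receptor and an inhibitor of BMP signalling were thus all lower in each derived library.

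Of 22 genes of chemoattractant and lipid receptors and of regulators of G-protein signalling (RGS), 3 were called lower (13.6%, against 4.97% of all genes). The RGS gene Rgs12 was the only 1 called higher (4.55%, near the 3.65% over all genes). S1pr1, which guides cells out of marrow along sphingosine 1-phosphate, was at 120, 136, 120 and 104 CPM before and 43.9, 61.2 and 46.8 CPM after (fell by 1.24 ± 0.16, edgeR adjusted p = 0.00379). Gpr183, an oxysterol receptor, was at 160, 161, 195 and 147 CPM before and 18.0, 53.2 and 36.2 CPM after (fell by 2.21 ± 0.31, adjusted p = 0.00573). Ptger4, a prostaglandin E2 receptor, fell by 1.06 ± 0.18 (adjusted p = 0.0108, and 0.0558 without derived replicate 1). Rgs12 lost its call without low replicate 1 and derived replicates 1 and 3 (adjusted p = 0.0208 in all libraries and up to 0.0989).

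**Figure D5:**
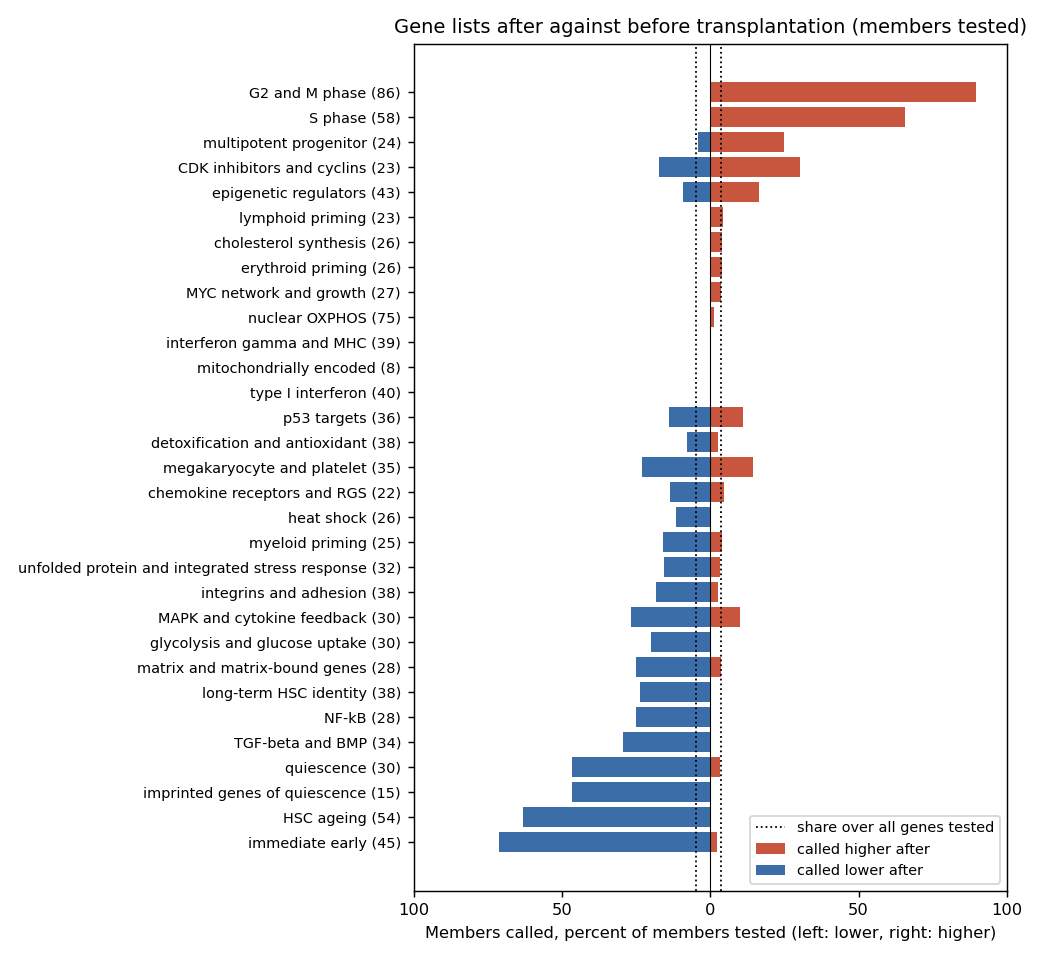
Percent of the tested members of 31 lists (number tested in brackets) called higher (right) or lower (left) after transplantation, with dotted lines at the shares over all genes tested, 3.65% higher and 4.97% lower. G2 and M phase reaches 89.5% on the right and immediate early genes 71.1% on the left, and 3 lists have no called member (type I interferon, interferon gamma and MHC, and mitochondrially encoded genes).

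LT-HSC identity genes were called lower in 9 of 38 (23.7%, against 4.97% of all genes) and higher in 0 (median -0.44). Hoxa5, a homeobox gene, was at 32.7, 15, 13.4 and 16.1 CPM before and 3.77, 6.07 and 4.05 CPM after (fell by 2.06 ± 0.37, edgeR adjusted p = 0.0127, and 0.0689 without derived replicate 1). Lmo2, a core factor of stem cell transcription, had groups that did not overlap but was not called (-0.38 ± 0.13, adjusted p = 0.0977). This count was sensitive to single libraries, with 1 called without derived replicate 1, 3 without low replicates 2 or 3 or derived replicate 3, and 17 without low replicate 4. Of 24 multipotent progenitor genes, 6 were called higher, a larger share than the 3.65% of all genes. Only 1, Adgrl4, was called lower (4.17%, near the 4.97% over all genes). Vim, the intermediate filament vimentin, was at 145, 113, 96.8 and 135 CPM before and 336, 316 and 279 CPM after (1.34 ± 0.16, adjusted p = 0.00276). Cd34, a surface marker absent from most LT-HSCs of adult mice, was at 152, 155, 159 and 177 CPM before and 356, 214 and 274 CPM after (0.81 ± 0.17, adjusted p = 0.0223). The calls of Cd34 and Adgrl4 were lost with 1 library left out (adjusted p up to 0.0851 without derived replicate 1 and 0.143 without derived replicate 3). A single member was called higher without low replicates 1, 2 or 3 or derived replicates 1 or 3, and 2 without derived replicate 2.

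Of 25 myeloid priming genes, 4 were called lower (16.0%, against 4.97% of all genes), the transcription factors Cebpb and Cebpd, Prtn3 and the granule membrane gene Cd63. Another, Nkg7, was called higher (4.00%, near the 3.65% over all genes). Cebpb was at 454, 547, 456 and 301 CPM before and 47.0, 109 and 74.9 CPM after (fell by 2.52 ± 0.30, edgeR adjusted p = 0.00318). Prtn3, the protease of azurophil granules, was at 467, 414, 460 and 420 CPM before and 154, 251 and 188 CPM after (fell by 1.16 ± 0.17, adjusted p = 0.00657). Both kept their call in every fit that left out 1 library, while Cebpd, Cd63 and Nkg7 did not (adjusted p up to 0.0637 without derived replicate 3, and 0.128 and 0.134 without derived replicate 1), and Cd63 was named after its values were seen. The myeloid list median was -0.18, and it was 0.45 without low replicate 4, -0.39 without derived replicate 2 and 0.26 without both. Erythroid genes had 1 of 26 called (3.85%, near the 3.65% higher over all genes), Mns1, higher (adjusted p = 0.0115, and 0.0614 without derived replicate 1), and a median of 0.11. Without low replicate 4, which held 2856 CPM of 15 erythroid cell markers against 141 to 481 CPM in low replicates 1 to 3, 8 erythroid genes were called higher and 1 lower, and the median was 1.66. Derived replicate 2 held 2076 CPM of these markers against 583 and 621 CPM in derived replicates 1 and 3. Without it 1 erythroid gene was called higher and the median was -0.49, and without both libraries 6 were higher, 1 was lower and the median was 0.94. The part of such cells in this difference was not tested. In the lymphoid list Sox4, which is also in the progenitor list, was the only call of 23 (4.35%, near the 3.65% higher over all genes). It was higher after transplantation (0.50 ± 0.12, adjusted p = 0.0349, and up to 0.142 with 1 library left out).

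Glycolysis had 6 of 30 genes called lower (20.0%, against 4.97% of all genes) and 0 higher (median -0.20), among them Slc2a3, the glucose transporter GLUT3, at 434, 631, 564 and 500 CPM before and 214, 237 and 275 CPM after (fell by 1.14 ± 0.16, edgeR adjusted p = 0.00573), while Ldha and Pkm were not called. A single glycolysis gene was called without derived replicate 1, and 3 without low replicate 3. Nuclear genes of oxidative phosphorylation had 1 of 75 called (1.33%, below the 3.65% higher over all genes), Cycs (cytochrome c, higher, adjusted p = 0.0375, and 0.150 without derived replicate 1). Of the 75 log2 changes 61 were positive, with a median of 0.21. The 8 mitochondrially encoded genes tested had a median of 0.71 and 0 calls by edgeR (3 higher and 0 lower at an unadjusted p under 0.05, 1 call by DESeq2 and 0 by limma voom), and 4 calls with a median of 1.03 without low replicate 4. Without derived replicate 2 there were 0 calls by edgeR and the median was 0.29, and without both libraries 4 calls and 0.62. Heat shock genes had 3 of 26 called lower (11.5%, against 4.97% of all genes) and 0 higher. Their median log2 change was -0.03, with 11 positive and 15 negative. Without low replicate 4, 5 were called lower and 2 higher. Dnajb1, a co-chaperone of HSP70, was at 441, 394, 488 and 351 CPM before and 170, 156 and 161 CPM after (fell by 1.37 ± 0.14, adjusted p = 0.00162). The small heat shock gene Hspb1 fell by 3.09 ± 0.39 (adjusted p = 0.00379), and Dnaja4 by 0.94 ± 0.22 (adjusted p = 0.0316, and up to 0.128 with 1 library left out).

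In the unfolded protein and integrated stress response, 5 of 32 genes were called lower (15.6%, against 4.97% of all genes), Ppp1r15a, Ddit4, Chac1, Trib3 and Ddit3. The serine synthesis gene Psat1 was the only 1 called higher (3.12%, near the 3.65% over all genes). Ppp1r15a, which lets translation resume after stress, was at 559, 627, 455 and 486 CPM before and 39.8, 129 and 44.4 CPM after (fell by 2.90 ± 0.41, adjusted p = 0.00560). Ddit4, an inhibitor of mTORC1, was at 20.0, 29.8, 22 and 15 CPM before and 4.67, 3.95 and 5.96 CPM after (fell by 2.16 ± 0.29, adjusted p = 0.00436). Chac1, Trib3, Ddit3 and Psat1 lost their calls with 1 library left out (adjusted p up to 0.0724, 0.0993, 0.170 and 0.137, each without derived replicate 1), and Ddit3 and Psat1 were named after their values were seen. Detoxification had 3 of 38 called lower (7.89%, against 4.97% of all genes), Mt1, Mt2 and Gstt1, and 6 without low replicate 4 and derived replicate 2. Cat (catalase) was the only 1 called higher (2.63%, below the 3.65% over all genes). Mt1, a metallothionein, was at 198, 157, 183 and 167 CPM before and 75.8, 102 and 61.4 CPM after (fell by 1.14 ± 0.18, adjusted p = 0.00804), and the other 3 lost their calls with 1 library left out (adjusted p up to 0.136 and 0.0997 without derived replicate 1, and 0.119 without low replicate 2). Cholesterol synthesis had 1 of 26 called (3.85%, near the 3.65% higher over all genes), Stard4, a sterol carrier. Stard4 was at 57.5, 45, 48.3 and 74.0 CPM before and 110, 114 and 116 CPM after (1.01 ± 0.17, adjusted p = 0.0111).

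No gene of the type I interferon list (40 tested, median -0.06) or the interferon gamma and MHC list (39 tested, median -0.02) was called by edgeR in all 7 libraries. Without low replicate 4, 1 type I gene was higher and 2 were lower, and 2 interferon gamma and MHC genes were lower. Without low replicate 4 and derived replicate 2 it was 1 higher and 3 lower, and 3 lower, and without derived replicate 2 alone 1 interferon gamma and MHC gene was lower. At an unadjusted p under 0.05, 2 type I genes were higher and 2 lower, and 2 interferon gamma and MHC genes were higher and 2 lower. DESeq2 called 1 and 2 genes of these lists, and limma voom 0 and 0. H2-D1, a classical MHC class I gene, was at 6703, 6689, 5799 and 4361 CPM before and 4180, 3893 and 4079 CPM after (-0.54 ± 0.17, adjusted p = 0.0777). The MYC list had 1 of 27 called (3.70%, near the 3.65% higher over all genes), the repressor gene Mxd3, higher (adjusted p = 0.0397, and up to 0.171 with 1 library left out). Without low replicate 4, 3 genes of this list were higher. Mycn was not called (-0.32 ± 0.18). Among 43 epigenetic regulators, 7 were called higher (16.3%, against 3.65% of all genes) and 4 lower (9.30%, against 4.97%). Tet1, which oxidises methylcytosine, was at 16.4, 22.9, 15.7 and 20.1 CPM before and 38.1, 51.2 and 49.2 CPM after (1.29 ± 0.19, adjusted p = 0.00573). Of the Polycomb methyltransferases, Ezh2 rose by 1.15 ± 0.21 (adjusted p = 0.0124, and 0.0652 without derived replicate 1), and Ezh1, named after its values were seen, was at 270, 233, 240 and 221 CPM before and 100, 154 and 156 CPM after (fell by 0.82 ± 0.17, adjusted p = 0.0228). The other genes called lower were Kdm6a (-0.89), Cbx7 (-0.95) and Bmi1 (-0.62), the last 2 named after their values were seen. Without derived replicate 1, 1 regulator was called higher and 0 lower, with adjusted p-values of 0.0610, 0.0586, 0.109 and 0.127 for Ezh1, Kdm6a, Cbx7 and Bmi1. Without low replicate 3 it was 3 and 1, without low replicate 2 it was 4 and 1, and without low replicate 1 it was 4 and 2. The counts without low replicate 4 were 11 higher and 6 lower, and without low replicate 4 and derived replicate 2 they were 16 and 6.

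Of the markers of other cell types, none of 23 neutrophil, 17 B cell, 16 mast cell, basophil and eosinophil or 15 erythroid cell markers was called by edgeR in all 7 libraries. Without low replicate 4, edgeR called 5 erythroid cell markers (median 1.92), 3 B cell markers (median 1.30) and 1 mast cell, basophil and eosinophil marker (median 1.57) higher and 0 neutrophil markers (median 0.45). Without derived replicate 2 it called 1 neutrophil marker lower, and the medians were -0.85 for erythroid cell, 0.03 for B cell, -1.67 for mast cell, basophil and eosinophil and -1.56 for neutrophil markers. Without both libraries, 3 neutrophil markers were lower, 3 erythroid cell and 3 B cell markers were higher, and 1 mast cell, basophil and eosinophil marker was called in each direction. At an unadjusted p under 0.05 there were 1, 1, 2 and 0 of them, and DESeq2 called 1, 1, 1 and 0. B cell markers summed to 6421 CPM in low replicate 4 and to between 392 and 1509 CPM in the other 6 libraries. Of 11 tested T and NK cell markers, Klrb1c (NK1.1) and Prf1 were called lower (18.2%, against 4.97% of all genes) and Nkg7 higher (9.09%, against 3.65%). Klrb1c was at 115, 185, 238 and 149 CPM before and 16.0, 39.4 and 25.8 CPM after (fell by 2.67 ± 0.34, adjusted p = 0.00397). Prf1 had 89 reads in the 4 libraries before and 3 in the 3 after, a ratio of 19 after scaling (95% counting interval 6.31 to 94.1), with the call lost without any one library but low replicate 1 (adjusted p up to 0.127). The whole T and NK list summed to 143, 220, 265 and 212 CPM before and 129, 103 and 96.1 CPM after. Most of this sum came from Klrb1c and Nkg7, the latter at 23.1, 28.7, 18.4 and 43.7 CPM before and 108, 54.9 and 59.8 CPM after. The median log2 change of the 11 tested markers was -0.06. Of 20 monocyte markers, only Cd14 was called, and it was lower (-1.54 ± 0.33, edgeR adjusted p = 0.0243). That share is near the 4.97% of all genes called lower, and the list median was -0.09. The call of Cd14 was lost without low replicate 3 or derived replicates 1 or 3 (adjusted p up to 0.0848). Tpsb2 and Tpsab1, tryptases of mast cells, had no reads in any of the 7 libraries. What part such cells have in the changes described above was not tested.

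Other genes among the largest changes had no list. Mc5r, a melanocortin receptor, was at 6.48, 5.73, 4.48 and 9.26 CPM before and 85.4, 42.1 and 53.5 CPM after (3.22 ± 0.30, 9.30-fold, edgeR adjusted p = 0.00110). Rnase6, an antimicrobial ribonuclease, was at 8.94, 11.9, 6.29 and 16.4 CPM before and 59.6, 49.8 and 36.7 CPM after (2.16 ± 0.31, adjusted p = 0.00573). Potassium channel genes were found on both sides: Kcna3 rose from 7.66, 10.2, 10.9 and 11.8 CPM to 41.2, 31.9 and 32.3 CPM (1.80 ± 0.20, adjusted p = 0.00231), Kcnk12 rose by 1.93 ± 0.22 (adjusted p = 0.00264), and Kcnb2 fell by 4.18 ± 0.44 (adjusted p = 0.00168). Gdf3, a ligand of the TGF-beta family, rose by 1.27 ± 0.14 (adjusted p = 0.00231). Hist1h2ae rose by 2.27 ± 0.27 (adjusted p = 0.00276), which is uncertain, since histone copies share sequence and most histone transcripts lack poly(A) tails.

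Spint1, a membrane protease inhibitor, was at 29.6, 21.6, 23.3 and 27.7 CPM before and 0.942, 2.45 and 1.23 CPM after (fell by 4.04 ± 0.36, edgeR adjusted p = 8.6e-04). Kdf1, a regulator of keratinocyte differentiation, was at 31.1, 24.5, 21.2 and 20.0 CPM before and 0.797, 0.219 and 1.53 CPM after (fell by 4.84 ± 0.54, adjusted p = 0.00231). Ripk4, a kinase of epidermal differentiation, fell by 5.24 ± 0.55 (adjusted p = 0.00168). Serpinh1, the collagen chaperone, was at 30.1, 26.3, 25.3 and 28.9 CPM before and 3.80, 5.88 and 4.68 CPM after (fell by 2.53 ± 0.22, adjusted p = 7.6e-04). Agtr1a, the angiotensin receptor, fell by 2.93 ± 0.26 (adjusted p = 8.7e-04). Ccbe1, a collagen-domain protein that processes VEGF-C, had 749 reads before and 1 after transplantation, a ratio of 481 after scaling (95% counting interval 86 to 19012).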

How the data were processed

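RNA of 7 libraries was analysed, 4 before and 3 after transplantation, grouped by their titles. The deposited values are raw counts of reads per gene. The submitters' processing notes name STAR 2.7.0d, FastQC 0.11.9, Picard 2.23.0 and the build GRCm38. For the gene annotation and the options used in counting, release and values were not given in the sources used here. Of the deposited counts, the column that ignores strand was used. The 2 stranded columns had a ratio of 0.996 to 0.9992, so reads of overlapping or antisense genes cannot be told apart. All 55450 gene IDs matched GENCODE names. Rows that name no gene stayed out of library sizes: unmapped 3.35% to 5.059%, multimapping 9.93% to 13.44%, no feature 3.373% to 5.133% and ambiguous 4.275% to 4.794% of reads.

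Genes were filtered with filterByExpr (minimum count 10), scaled by TMM and tested with edgeR 4.0.16 (quasi-likelihood, 2-sided, R 4.3.3) on the 7 libraries, with Benjamini-Hochberg adjustment over all 15807 genes and a threshold of 0.05. Log2 CPM used a prior count of 2. Intervals of read ratios cover counting error only. Alternatives were other scalings and filters, limma 3.58.1 (voom), DESeq2 1.42.0, all 14 libraries in the fit, a replicate block and leaving out libraries. On simulated data for this comparison (15410 genes), edgeR called 46 of 100 genes changed 2-fold, 94 of 100 changed 4-fold and 12 of 15210 unchanged genes. Named genes were the sort markers, Itgb3, Clu, Matn4 and Ptpn7, up to 15 protein-coding genes in each direction by log2 change (mean log2 CPM of at least 1, no overlap) and by p, and up to 4 members of each list by p and 2 by level. Some genes that the rule names are not reported here. Members, lists and rules were chosen with earlier results of these data known. Gene lists were described by counts and medians, without a set test.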

Additional observations from a re-analysis of the deposited data

Results flagged for a closer look

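In 11 of 183 sets of values from the 4 Selp low libraries, 1 library lay far from the other 3 by Dixon's criterion, and chance flags about 1 in 20 groups. Low replicate 4 was the high library for Top2a (120 CPM, others 46.6 to 48.5), Uhrf1 (89.3 CPM, others 51.0 to 54.8) and Itga4 (60.7 CPM, others 30.1 to 32.4). It was also high in the mean of the S-phase list (5.22 log2 CPM, others 4.57 to 4.65), the adhesion list (4.92, others 4.40 to 4.48) and the mitochondrially encoded genes (8.16, others 6.87 to 7.08). Low replicate 2 was high for Nr4a1 (1760 CPM, others 706 to 811) and low for Cdkn2c (29.2 CPM, others 45.9 to 48.5). Low replicate 3 was high for Ccbe1 (8.10 CPM, others 5.49 to 5.72) and for the ageing list mean (6.79 log2 CPM, others 6.62 to 6.64). Low replicate 1 was high for Cdkn1c (55.7 CPM, others 43.8 to 44.7).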

How the results depend on the processing

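The number of called genes moved by over 1.5 times with DESeq2 (2345, of which 1028 higher and 1317 lower) and without low replicate 4 and derived replicate 2 together (2347, of which 1162 higher and 1185 lower). With 1 library left out it ran from 308 to 2206, with 84 to 1095 higher and 224 to 1111 lower. The cause was not tested. Other scalings, filters, limma voom and all 14 libraries gave 1344 to 1936 calls. No alternative gave a called gene the other direction. Same-numbered libraries did not deviate together (r = 0.09, -0.01 and 0.03, against -0.07 to 0.07 for other pairs). With 3 and 4 libraries this cannot decide whether replicate numbers pair a donor with a recipient, since spread between libraries could hide a shared donor. With the replicate block edgeR called 1663 genes, 1113 of them also called without it. Of 126 called genes named in the text, 77 kept their call in each of the 7 fits that left out 1 library, and 47 lost it without derived replicate 1. With 3 and 4 libraries, edgeR called 46 of 100 simulated 2-fold changes, in a simpler setting than the real libraries. A gene that was not called may thus still differ.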
